A study of Mus musculus with 4 samples.

Results

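Krüppel-like factors (KLFs) are transcription factors that bind CACCC boxes and GC-rich elements through zinc fingers at their C-terminus, and their other domains recruit coactivators or corepressors. Klf2 and Klf4 are known in endothelial cells (ECs) as genes induced by laminar flow through the MEKK3-MEK5-ERK5-MEF2 cascade, and they favour an anticoagulant, anti-inflammatory vessel wall. Klf15 is known in cardiomyocytes as a glucocorticoid-induced regulator of lipid and amino acid metabolism that restrains hypertrophy. The genes described here were the 8 named members Klf2, Klf3, Klf4, Klf6, Klf9, Klf10, Klf13 and Klf15, taken by symbol from the 21728 protein-coding genes of GENCODE M21 that lie outside chromosome Y and the mitochondrial genome. All 8 were found in the annotation.

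The data were ATAC-Seq peaks, which mark DNA open to the Tn5 transposase, from heart nuclei of male C57BL/6 NuTRAP/Cdh5-Cre mice aged 8 to 12 weeks. All mice carried both transgenes, so that Cre driven by the Cdh5 promoter switched on a GFP reporter in cells of endothelial descent, and sorting gave 2 GFP+ replicates (endothelial) and 2 GFP- replicates (all other nuclei together, with no separation of cardiomyocytes, fibroblasts or mural cells). Each reaction used 100 to 50000 nuclei. The deposited peaks formed 1 list per population, in which both replicates are pooled, with 78912 GFP- and 65008 GFP+ peaks. The lists hold no values per replicate and no read counts, so the reads behind each peak are unknown, no difference between the lists has a replicate check, and none was tested.

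Peaks were compared by percentile rank, the percentage of the other peaks in the same list that have a smaller area, where area is the caller's significance signal summed along the peak. A rank of 99 thus places a peak among the largest of its list, and a rank of 0 is used where a list had no peak. Differences are in percentile points, GFP+ minus GFP-. A peak was assigned to a gene when its summit lay in the gene record or within 100 kb of it and no other protein-coding gene was nearer. Distances are from the transcription start of the gene record, negative upstream. Rank reflects the mix of nuclei in a sort, and fewer nuclei of a type cannot be told apart from less open chromatin per nucleus. Marker starts separated the sorts in part. Of 9 endothelial markers, 5 ranked more than 20 points higher in GFP+ and 1, Tek, ranked 27.0 points lower, whereas 7 of 8 fibroblast markers ranked more than 20 points lower. With every transcript start counted, Pecam1 and Erg ranked 66.9 and 57.5 in GFP+ with no GFP- peak. Col1a1 and Pdgfra then differed by only -14.9 and -9.41 points. Of 8 pericyte and smooth muscle markers, 2 ranked more than 20 points lower, and the 4 with a start peak in the GFP+ list ranked 49.1 to 76.1 there. Of 8 cardiomyocyte markers, 6 had start peaks in both lists and none differed by over 20 points. No start peak was found in either list for 6 macrophage and 2 Schwann cell markers. The part of other cell types in the KLF results was not tested.

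All 8 KLF genes had a peak at their start (within 250 bp) in both lists, against 53.8% of all protein-coding genes, of which 0.999% had one in GFP+ only and 3.11% in GFP- only. The start peaks were among the largest and widest of each list. Their median rank was 99.6 in the GFP- list and 99.2 in the GFP+ list, where all start peaks had medians of 90.5 and 89.3. Their median length was 3887 bp in GFP- and 3410 bp in GFP+, against 1236 and 1163 bp for all start peaks. The starts therefore did not divide the 8 genes into members open in one sort and members open in the other. The median start difference was -0.01 points, with values from -0.80 to 1.08 over the 8 genes. That of the 12577 protein-coding genes with a start peak was -0.83 points. No member differed by more than 20 points, as did 9.83% of those genes. Starts ranked this high in GFP- had no room to rank 20 points higher in GFP+. Among the 1673 genes whose GFP- start rank was at least the lowest of the KLF genes, the median difference was -0.13 points. Percentiles 5 and 95 of their differences were -3.82 and 0.28 points. These genes were chosen by their GFP- rank alone, so differences could run far down (lowest -99.5) but little up (highest 1.59). The rank was higher in GFP+ for Klf2, Klf3 and Klf6, 3 of 8, against 28.4% of all genes with a start peak. Ranked instead by the p-value of the summit, only Klf4 was higher in GFP+ and the median difference was -1.03 points.

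**Figure D1:**
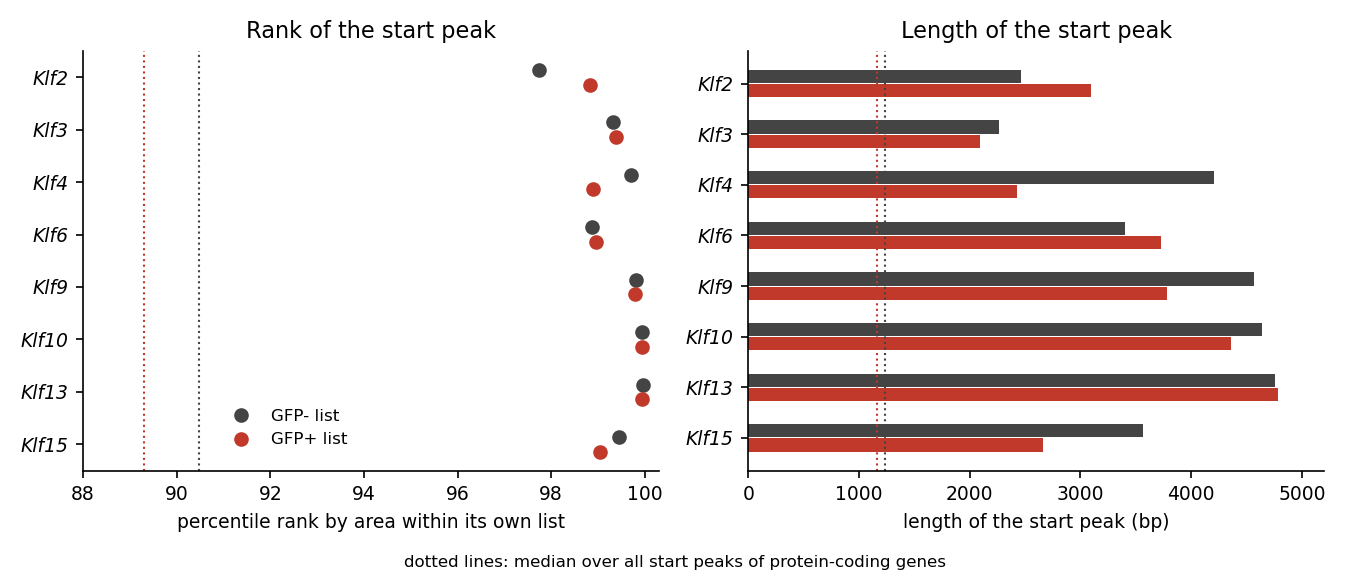
Percentile rank by area (left) and length in bp (right) of the start peak of each KLF gene in the GFP- list (grey) and the GFP+ list (red), with dotted lines at the medians of all protein-coding start peaks. All ranks lie between 97.7 and 99.95, far right of the dotted lines, and Klf2 is longer in GFP+ while Klf4 and Klf15 are longer in GFP-.

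Base composition was also examined at the starts. The 1000 bp around them held 59.0% to 75.8% GC, against a median of 54.9% for all protein-coding starts. The observed over expected ratio of CpG ranged from 0.71 at Klf2 to 1.02 at Klf9, above the median of 0.558 for all starts. For all protein-coding starts with a peak in either list the median ratio was 0.730, so that Klf2 and Klf10 (0.719) lay slightly under it. Summits of the start peaks in the 2 lists lay a median of 28 bp apart, against 10 bp for all genes with a start peak in both lists, and at Klf2, Klf10 and Klf15 by 0 or 1 bp.

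Klf2 (chr8:72319033-72321656, + strand, GRCm38) was the member whose start moved most towards GFP+ by area. Its start peak ranked 97.7 in GFP- (place 1778 by area, 2467 bp) and 98.8 in GFP+ (place 764, 3096 bp), a difference of 1.08 points. The GFP+ start peak reached into the next GFP- peak downstream, so the areas being ranked cover different lengths. By summit p-value the ranks were 99.1 and 99.0, and the difference was -0.06 points. In both lists the summit lay just upstream of the start, at -107 bp in GFP- and -108 bp in GFP+. The RefSeq promoter (GRCm38.p6), shown from 250 to 31 bases before the RefSeq start because both summits fall in it, holds a match to the MEF2 word (CTA and TAG, 4 bases apart), which is in capitals.

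Klf2 promoter, chr8:72318812-72319031, + strand: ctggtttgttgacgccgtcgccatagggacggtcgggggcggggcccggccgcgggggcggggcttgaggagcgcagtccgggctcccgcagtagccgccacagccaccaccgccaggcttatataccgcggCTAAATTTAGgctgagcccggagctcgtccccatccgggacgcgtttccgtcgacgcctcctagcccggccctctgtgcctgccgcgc

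This word occurred in 2.83% of 32851 promoters cut in the same way, and it lay within 100 bp of the start summits of both lists. A match of letters is a description and not a binding site. Klf2 had 3 peaks in each list and all were shared. Downstream of the gene a peak at 3.56 kb ranked 75.6 in GFP- and its counterpart at 3.86 kb ranked 77.2 in GFP+, and the last pair at 5.3 kb ranked 16.6 and 15.9.

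Klf2 lies in a gene-dense stretch, so most peaks around it are nearer to another gene. When peaks within 100 kb were taken whichever gene was nearest, an alternative chosen after the data had been seen, the stretch held 27 GFP- peaks, of which 0 lacked a GFP+ partner, and 29 GFP+ peaks, of which 3 lacked a GFP- partner (all peaks, 30.3% and 13.4%). These formed 26 regions, where a region is a set of overlapping peaks of both lists. Their median difference was 3.34 points, while the other 7 members had medians from -6.75 to -2.60 in the same kind of window. Of the 26 regions, 4 ranked more than 20 points higher in GFP+ and 0 more than 20 points lower, and over all 86649 regions of the lists 7.63% were higher and 23.8% lower by that much. Among the regions higher in GFP+, a peak at -18.2 kb ranked 63.3 and was found in GFP+ only (nearest gene Gm10282). Further regions over 20 points were at -57.0 kb, from 24.8 to 46.5, and at 35.4 kb in an intron of Eps15l1, from 21.5 to 42.7. At -50.5 kb a region of 1353 bp ranked 83.2 in GFP- and 93.6 in GFP+. Other regions of the stretch ranked lower in GFP+ by less than 20 points, among them -76.7 kb, from 67.4 to 53.2, and -46.5 kb, from 42.6 to 29.6. Because these peaks lie nearer to other genes, their assignment to Klf2 is by distance alone. The 200 bp around the summit at -18.2 kb are shown on the + strand of GRCm38, as the highest-ranked peak of the stretch that the GFP- list lacked, with an AP-1 word (TGANTCA) in capitals.

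Klf2 -18.2 kb, chr8:72300710-72300909: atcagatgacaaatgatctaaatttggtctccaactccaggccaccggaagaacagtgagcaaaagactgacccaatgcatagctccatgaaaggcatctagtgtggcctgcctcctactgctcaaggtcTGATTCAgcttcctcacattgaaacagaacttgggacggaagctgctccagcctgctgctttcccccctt

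Klf4 (chr4:55527143-55532466, - strand), the other flow-induced member, moved the opposite way at its start. The start peak ranked 99.7 in GFP- (place 239, 4209 bp) and 98.9 in GFP+ (place 714, 2428 bp), a difference of -0.80 points. The GFP+ list held a second peak of 2627 bp and rank 93.1 next to it over the gene body, inside a stretch that the GFP- list covered mostly with its single long peak, so the areas being ranked cover different lengths of it. By summit p-value the ranks were 96.4 and 96.6. Away from the start Klf4 had the largest gain in GFP+ of any shared region of the 8 genes. At -72.7 kb the rank was 35.2 in GFP- and 80.6 in GFP+, 45.4 points higher, and the region also holds the start of Gm12506, a long noncoding RNA gene. At 51.8 kb the rank rose from 2.46 to 39.3. In the other direction a region at -91.0 kb ranked 60.9 in GFP- and 34.3 in GFP+. At Klf4 5 of 13 GFP- peaks and 2 of 10 GFP+ peaks had no partner, against 30.3% and 13.4% of all peaks. The 5 GFP- peaks without a partner were at -35.7 kb (rank 39.2), -30.8 kb (35.6, at the start of the noncoding gene Gm12511), -9.00 kb (30.98), -83.6 kb (8.26) and 5.90 kb (3.07). The 2 GFP+ peaks without a partner were small, with ranks of 13.7 in the untranslated part of the last exon and 5.81 at 54.3 kb. The 200 bp around the GFP+ summit at -72.7 kb are shown since no other shared region gained as much, and none of the 8 words searched occurred in them.

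Klf4 -72.7 kb, chr4:55605028-55605227, + strand: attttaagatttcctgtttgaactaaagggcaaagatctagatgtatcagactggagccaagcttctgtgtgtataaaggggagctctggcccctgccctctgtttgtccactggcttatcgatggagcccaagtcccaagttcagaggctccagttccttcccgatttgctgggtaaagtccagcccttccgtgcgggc

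Klf6 (chr13:5861482-5870394, + strand), a widely expressed member known from the response to vascular injury, had nearly the same start rank in both lists, 98.9 in GFP- (3401 bp) and 99.0 in GFP+ (3724 bp). It was the only member with more covered sequence in GFP+ than in GFP-, by a ratio of 1.07, against 0.803 for the whole lists and 0.851 for the 8 genes together. A GFP+ peak without a partner lay in a coding exon at 5.21 kb, at rank 47.0. The other GFP+ peaks without a partner ranked 19.7 (-56.7 kb), 18.9 (36.3 kb), 12.1 (38.0 kb) and 4.19 (-38.8 kb). In the GFP- list the strongest unpartnered peak was at 76.2 kb with rank 62.3, followed by 10.1 kb with 38.5, 70.2 kb with 19.3, -18.4 kb with 7.75 and -30.5 kb with 2.01. The lists thus held 5 such peaks each at Klf6, of 16 GFP- and 17 GFP+ peaks, where 30.3% of all GFP- and 13.4% of all GFP+ peaks had no partner. Neighbouring shared regions also went apart, since at -59.3 kb the rank was 59.9 in GFP- and 35.9 in GFP+, and at -58.5 kb it was 12.8 and 31.2. The strong region between them and the gene, at -57.7 kb, ranked 82.6 and 85.5.

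Klf3 (chr5:64803388-64832901, + strand) encodes a repressor that recruits CtBP corepressors. Its start ranked 99.3 in GFP- (2261 bp) and 99.4 in GFP+ (2097 bp), and its main intronic regions were close in rank, with values of 96.6 and 95.01 at 8.87 kb and of 81.7 and 81.0 at 2.995 kb. All 6 regions in the flank downstream of the gene ranked lower in GFP+, as did 67.9% of all regions. A GFP- peak of 1621 bp at 58.7 kb ranked 74.8 and overlapped no GFP+ peak, a region at 36.8 kb ranked 63.6 in GFP- and 21.9 in GFP+, and one at 74.8 kb ranked 78.4 and 42.5. Of the 5 regions of Klf3 that were lower in GFP+ by more than 20 points, 4 lay on this side. The remaining unpartnered GFP- peaks ranked 30.8 (72.9 kb), 24.1 (-86.5 kb) and 12.7 (-80.9 kb). On the GFP+ side a peak at -99.9 kb, just inside the 100 kb limit, ranked 65.2 with no GFP- partner, and weak peaks at 16.3 and 12.6 kb ranked 9.83 and 5.61. The 200 bp at the GFP- summit at 58.7 kb are shown as the highest-ranked flank peak of the 8 genes that the GFP+ list lacked, with the KLF word CCNCACCC, read on the opposite strand, in capitals.

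Klf3 58.7 kb, chr5:64861956-64862155, + strand: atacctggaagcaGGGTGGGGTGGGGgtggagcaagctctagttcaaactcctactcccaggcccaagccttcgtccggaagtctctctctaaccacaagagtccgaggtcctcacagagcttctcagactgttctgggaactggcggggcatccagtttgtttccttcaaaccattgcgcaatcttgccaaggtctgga

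Klf9 (chr19:23141226-23168134, + strand), a glucocorticoid- and thyroid hormone-responsive member, and Klf13 (chr7:63886351-63938915, - strand), known as a partner of GATA4 in heart development, had start peaks among the very largest. The start of Klf9 ranked 99.8 in both lists (4570 bp in GFP- and 3778 bp in GFP+). At -6.27 kb lay a still larger shared region, over the start of the noncoding gene 2410080I02Rik, with ranks of 99.96 and 99.95. Introns of Klf9 were shared at 8.51 kb (80.6 and 79.8) and 10.5 kb (75.5 and 74.8). In GFP- only, an intronic peak of 1236 bp at 6.29 kb ranked 52.9 by area and 6.83 by summit p-value. A peak in an untranslated exon at 23.8 kb, also in GFP- only, ranked 19.6. Its shared intronic region at 21.4 kb ranked 48.0 in GFP- and 18.9 in GFP+. In GFP+ only, peaks at -15.5 and 19.0 kb ranked 32.2 and 6.69, and the largest shared gain was at -50.9 kb, from 50.01 to 55.7.

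The start of Klf13 ranked 99.95 in GFP- (place 39, 4758 bp) and 99.94 in GFP+ (place 38, 4782 bp), the highest of the 8 in both. Klf13 also had the most peaks, 28 in GFP- and 26 in GFP+. Strong intronic regions were shared at 26.9 kb (98.8 and 98.9) and at 41.9 kb (96.2 and 93.7, at the start of the noncoding transcript Gm27252). Next to them an intronic region at 43.5 kb ranked 50.4 in GFP- and 3.58 in GFP+. Its untranslated 3′ exon at 51.8 kb ranked 59.8 and 84.3, a gain of 24.4 points, and a region at 86.9 kb ranked 33.2 and 58.5. At Klf13 9 of 28 GFP- peaks and 6 of 26 GFP+ peaks had no partner, against 30.3% and 13.4% of all peaks. Of the 9 GFP- peaks without a partner the highest ranked 40.7 (24.6 kb), 40.5 (63.0 kb) and 39.3 (4.23 kb). Of 6 such GFP+ peaks the highest ranked 41.4 (-48.2 kb), 37.5 (53.7 kb) and 29.2 (28.5 kb). Klf13 thus had regions on both sides of zero within one gene. The 200 bp around the GFP+ summit at 26.9 kb are shown as the strongest shared intronic element of the 8 genes, with the MEF2 word in capitals.

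Klf13 26.9 kb, chr7:63911908-63912107, + strand: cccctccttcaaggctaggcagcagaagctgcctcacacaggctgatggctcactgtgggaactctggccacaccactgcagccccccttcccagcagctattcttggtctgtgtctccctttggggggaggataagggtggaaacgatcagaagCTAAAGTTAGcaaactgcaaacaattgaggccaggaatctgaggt

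Klf10 (chr15:38291463-38300706, - strand), induced early by TGF-beta, had a start peak of rank 99.9 in both lists (places 42 and 43, 4640 and 4358 bp), with its summit 1.44 kb into the gene. Its start region and 14 of 15 others ranked lower in GFP+, as did 67.9% of all regions, and the covered sequence was 0.674 of that in GFP-. At Klf10 7 of 16 GFP- peaks and 1 of 10 GFP+ peaks had no partner, against 30.3% and 13.4% of all peaks. The highest of the 7 were at 41.0 kb (54.8), -42.3 kb (34.5) and 22.6 kb (33.5). A shared region at 11.5 kb ranked 47.9 in GFP- and 3.91 in GFP+. The exception was a GFP+ peak at -77.7 kb with rank 65.4 and no GFP- partner. It lay in a cluster of shared regions, at -74.2 kb (87.8 and 86.2), -84.1 kb (91.1 and 89.7, at the start of the noncoding gene Gm26863) and -91.0 kb (68.2 and 64.4). The 200 bp at its summit are shown as the highest-ranked GFP+ peak of the 8 genes that the GFP- list lacked. None of the words searched occurred in them.

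Klf10 -77.7 kb, chr15:38378271-38378470, + strand: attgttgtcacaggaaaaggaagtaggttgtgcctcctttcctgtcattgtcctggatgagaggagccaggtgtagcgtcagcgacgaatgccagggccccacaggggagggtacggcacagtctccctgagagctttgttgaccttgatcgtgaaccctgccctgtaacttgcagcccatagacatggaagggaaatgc

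Klf15 (chr6:90462576-90475238, + strand) had the largest difference of any single region, in an intron. Its start ranked 99.5 in GFP- (place 429, 3565 bp) and 99.1 in GFP+ (place 616, 2666 bp), with the summit 1.10 kb into the gene. An intronic peak of 1248 bp at 3.61 kb ranked 82.3 in GFP- and overlapped no GFP+ peak, the highest rank of any unpartnered peak at the 8 genes. A further GFP- peak without a partner lay at 14.4 kb, past the end of the gene, at rank 56.8. The only GFP+ peak without a partner, at 5.87 kb, ranked 4.11. The remaining regions were shared, at -11.7 kb with ranks of 90.8 and 87.98 and at 8.83 kb in an intron with ranks of 88.9 and 80.4. Covered sequence at Klf15 was 0.631 of that in GFP-, the lowest ratio of the 8. The 200 bp around both intronic GFP- summits are shown, with the TCF21 E-box AACAGCTG (read on the opposite strand) in capitals at 3.61 kb and the glucocorticoid receptor word (GNACA and TGTNC, 3 bases apart) at 8.83 kb.

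Klf15 3.61 kb, chr6:90466087-90466286, + strand: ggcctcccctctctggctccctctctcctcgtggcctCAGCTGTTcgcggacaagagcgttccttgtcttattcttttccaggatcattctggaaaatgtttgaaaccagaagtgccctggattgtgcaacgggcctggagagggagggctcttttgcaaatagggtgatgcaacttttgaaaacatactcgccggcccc
Klf15 8.83 kb, chr6:90471305-90471504, + strand: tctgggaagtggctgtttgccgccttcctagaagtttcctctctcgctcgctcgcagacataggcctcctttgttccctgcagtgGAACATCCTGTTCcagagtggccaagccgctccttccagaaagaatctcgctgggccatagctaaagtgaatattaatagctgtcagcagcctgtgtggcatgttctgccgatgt

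**Figure D2:**
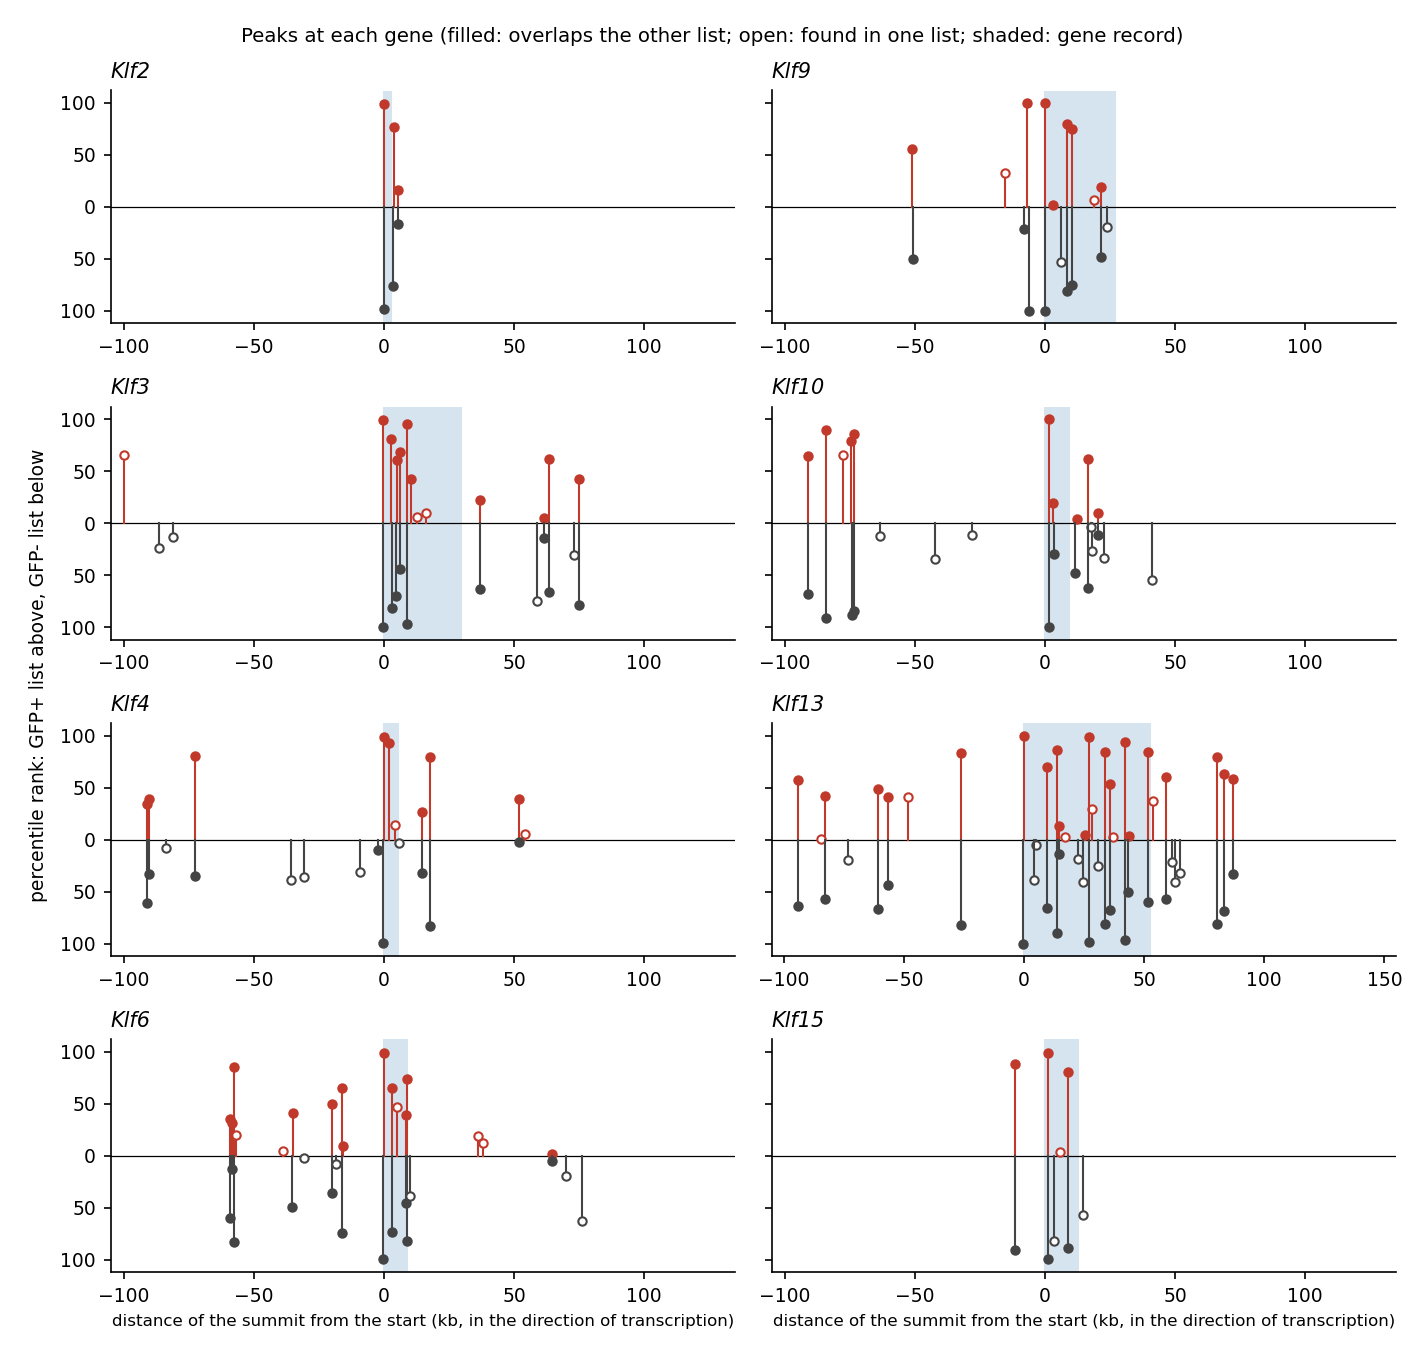
Percentile rank of every peak assigned to each KLF gene by distance of its summit from the start (kb), GFP+ upward in red and GFP- downward in grey, with filled points for peaks that overlap the other list, open points for those that do not, and the gene record shaded. Starts reach the top of each panel and its bottom at all 8 genes, and open points include the GFP- peak of rank 82.3 in Klf15 and the GFP+ peak of rank 65.4 upstream of Klf10.

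Counted together, the 8 genes had 103 GFP- and 92 GFP+ peaks, at medians of 13 and 10 per gene, where protein-coding genes with a start peak had medians of 3 and 2. Of the GFP- peaks 34 overlapped no GFP+ peak, 33.0% (Wilson 95% interval 24.7 to 42.6, covering counting error only), beside 30.3% of all GFP- peaks. Of the GFP+ peaks 20 overlapped no GFP- peak, 21.7% (14.5 to 31.2), beside 13.4% of all GFP+ peaks. The second share lay nearer to its background when low peaks were left out. With areas of at least 400 in both lists, 9 of 65 GFP+ peaks lacked a partner, 13.8% (7.46 to 24.3), beside 11.9% of all GFP+ peaks. No start peak was without a partner. In gene bodies 8 of 28 GFP- and 9 of 33 GFP+ peaks had none, in upstream flanks 12 of 35 and 7 of 29, and in downstream flanks 14 of 32 and 4 of 22. Shares over all genes were not split by these places, so the counts by place have no matched background and describe the 8 genes only. With start peaks left out, the shares without a partner were 35.8% of GFP- and 23.8% of GFP+ peaks at the 8 genes, against 33.1% and 15.3% at all protein-coding genes.

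The peaks merged into 117 regions. Their median difference was -3.01 points (interval from order statistics -6.81 to -1.02), and that of all 86649 regions was -3.90 points. The KLF regions ranked higher in GFP+ in 31.6% of cases, against 32.1% of all regions, and lower in 68.4%, against 67.9%. They were higher by more than 20 points in 11 cases (9.40%, interval 5.33 to 16.1), beside 7.63% of all regions, and lower by more than 20 points in 28 cases (23.9%, 17.1 to 32.4), beside 23.8%. These region shares lie near the background, and the differences described above are those of single regions. Their size depended on the measure. By summit p-value the difference was -6.83 points at Klf9 6.29 kb, -12.5 at Klf10 11.5 kb, -15.4 at Klf13 43.5 kb and -41.0 at Klf3 58.7 kb. At Klf15 3.61 kb it stayed large, at -74.1 points. At Klf4 -72.7 kb (55.9) and Klf3 36.8 kb (-49.2) it was larger than by area.

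**Figure D3:**
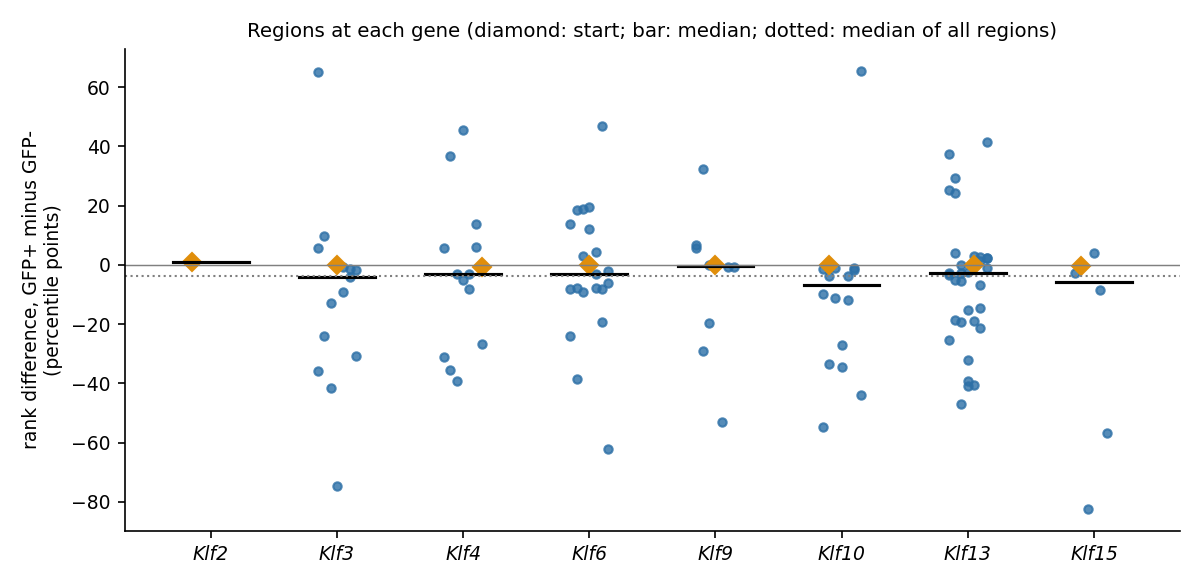
Difference in percentile rank, GFP+ minus GFP-, of each region at each KLF gene, with diamonds for start regions, bars at the gene medians and a dotted line at the median of all regions (-3.90). Diamonds lie within 1.08 points of zero, while other regions spread from -82.3 at Klf15 to 65.4 at Klf10.

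Short words for 8 motifs were looked for in a window of 200 bp centred on each summit, reading both strands, and matches of different words may overlap. The KLF word occurred in 12.6% of GFP- and 10.9% of GFP+ peaks of the 8 genes, against 9.20% and 9.81% of all peaks. The AP-1 word TGANTCA occurred in 13.6% and 13.0%, against 9.99% and 7.71%. For both words the Wilson intervals of the GFP- shares (7.53 to 20.4 and 8.27 to 21.5) include the values of all peaks, as does that of AP-1 in GFP+ (7.62 to 21.4). The MEF2 word was found in 5 of 103 and 6 of 92, 4.85% and 6.52%, against 4.83% and 5.26%. The ETS word CAGGAAGT, the SOX word CCATTGT and the GATA word AGATAAG were each found in 3 or 4 peaks per list, 2.91% to 4.35% of them, against 2.19% to 3.26% of all peaks. The glucocorticoid receptor word was found in 2 peaks of each list, 1.94% and 2.17%, against 0.907% and 0.671%. The TCF21 word was found in 2 GFP- peaks, at Klf2 (3.56 kb) and Klf15 (3.61 kb), and in 0 of 92 GFP+ peaks, an upper Wilson bound of 4.01%, against 3.02% and 1.87% of all peaks. The match at Klf2 also lies inside the overlapping GFP+ peak. It was not counted there because the summit of that peak is 302 bp away from the GFP- summit. Of the 7 members with a RefSeq promoter in the table used, Klf3 and Klf15 held the KLF word (12.8% of all promoters) and Klf9 the AP-1 word (6.12%), and Klf4, Klf6 and Klf13 held none of the 8.

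The rest of the family was more varied. Of 18 other KLF and SP genes, 10 had a start peak in both lists, 2 (Sp2 and Sp9) in GFP- only and 6 in neither. Klf7, Klf11, Klf12, Klf16, Sp1, Sp3 and Sp4 ranked above 98.6 in both lists. The start of Sp5 ranked 70.3 in GFP- and 47.1 in GFP+. The start of Sp2 ranked 63.9 in GFP- with no GFP+ peak, but with every transcript start counted the ranks were 99.0 and 98.7. Counted in the same way, Klf8, which had no peak at its gene record, ranked 20.7 in GFP- and 53.6 in GFP+.

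Upstream of Klf2 and Klf4, the genes of the MEKK3-MEK5-ERK5-MEF2 cascade and of the cerebral cavernous malformation complex that restrains it had start peaks in both lists in 10 of 11 cases, and differences ran from -3.89 (Mapk7, which encodes ERK5) to 0.20 points (Pdcd10). Mef2c was the exception at its gene record but ranked 95.5 and 93.5 at another transcript start. Of 5 endothelial genes downstream of Klf2 and Klf4, 4 had start peaks in both lists. Nos3, which encodes endothelial nitric oxide synthase, ranked 39.4 in GFP- and 85.5 in GFP+, and it was the only one that differed by over 20 points. Thbd, the thrombomodulin gene, ranked 94.9 and 95.04, and Sele, the E-selectin gene, had no start peak. The endothelin gene Edn1 ranked 90.9 and 84.6, and Vcam1, which encodes a leukocyte adhesion molecule, 35.4 and 19.99. The 4 with start peaks thus went both ways, from -15.4 points at Vcam1 to 46.1 at Nos3. Nos3 and Thbd ranked higher in GFP+, and Edn1 and Vcam1 lower. Of 5 genes downstream of Klf15, 4 had start peaks in both lists, with Slc2a4 (the GLUT4 glucose transporter) at 99.2 and 99.1 and Kcnip2 (a potassium channel subunit) at 81.4 and 77.4. Of 4 glucocorticoid response genes, 3 had start peaks in both lists, with Per1 at 99.99 in each, Fkbp5 at 97.1 and 86.3 and Tsc22d3 at 63.3 and 53.5, a median difference of -9.88 points over the 3. With every transcript start counted, Fkbp5 ranked 97.1 and 94.9 and Tsc22d3 92.5 and 86.6. Nr3c1, which had no peak at its gene record, then ranked 99.9 in both lists. All 4 corepressor genes had start peaks in both lists. Sin3a fell from 99.8 to 78.0 at its gene record, but with every transcript start counted it ranked 99.8 in both.

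**Figure D4:**
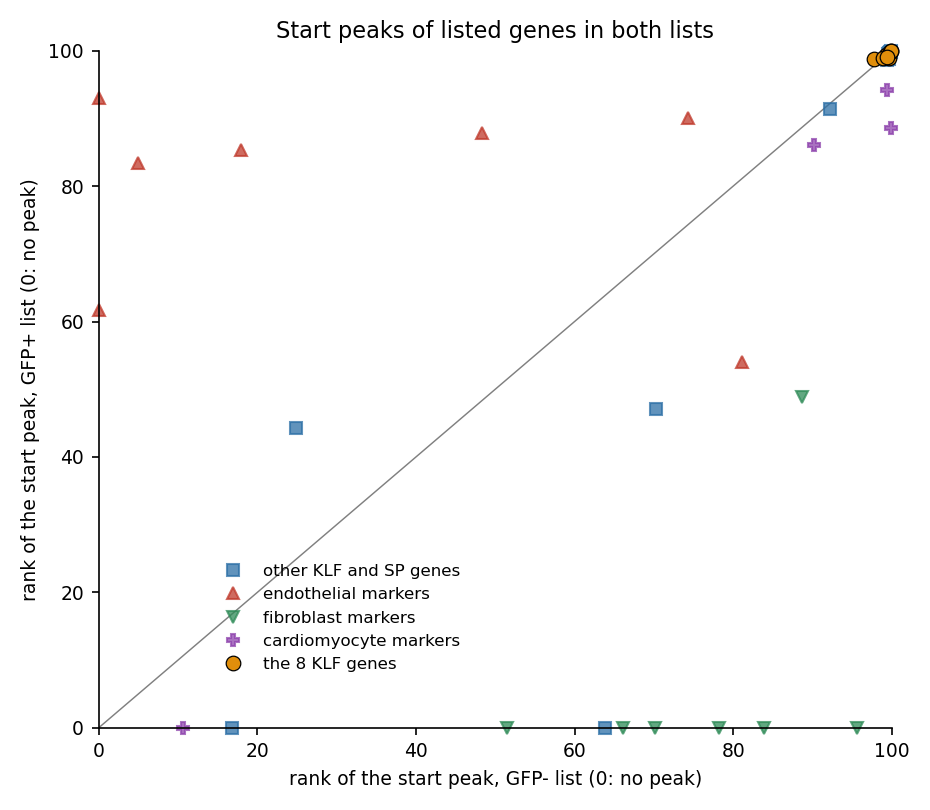
Percentile rank of start peaks in the GFP+ list against the GFP- list for the 8 KLF genes, other KLF and SP genes, and endothelial, fibroblast and cardiomyocyte markers, with genes that lack a start peak in both lists left out and the line of equal rank drawn. The 8 KLF genes sit together at the upper right corner, most endothelial markers lie above the line and all fibroblast markers below it.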

How the data were processed

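ATAC-Seq libraries of GFP+ and GFP- heart nuclei (2 replicates each) were grouped by their labels. The authors trimmed reads with fastp, aligned them to mm10 with Bowtie2 (2.3.5.1 in the submitters' processing notes), filtered with SAMtools, took out duplicates (Picard) and reduced the libraries to like depth. Genrich, set for ATAC-Seq, then called consensus peaks from both replicates of each population, without mitochondrial, Y-linked or blacklisted sequence. As deposited, the area is a signal that the authors' caller summed along the peak, with a minimum of 200. The deposited score is the mean of that signal scaled and limited to 1000 by the authors' caller, and it was not used for ranking. The deposited -log10 p-value belongs to the summit. Because each list was called from both replicates together, area and rank carry no replicate error, and long peaks rank high.

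From these lists, percentile ranks, overlaps (at least 1 bp), merged regions and distances to GENCODE M21 genes (GRCm38.p6, the same build) were computed with Python 3.11.15, numpy 2.4.6, pandas 2.3.3 and scipy 1.17.1. Overlap, assignment, start and region steps were checked on simulated peaks. Named peaks were every start peak, every peak found in 1 list (the 3 of highest rank where a gene had more than 5) and the shared region with the largest difference in each direction. Other regions and the printed sequences were chosen after their values had been seen. Of the other lists, genes whose start status or rank differed by over 20 points were to be named, and a few others were named after their values had been seen. The values and sequence of 1 region near Klf2 are not reported here, although the counts include it. The members and lists were chosen with earlier results of these data known. Alternatives changed the overlap, the minimum area, the flank, the assignment, the start definition and the ranking measure.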

Additional observations from a re-analysis of the deposited data

How the results depend on the processing

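The number of KLF genes with a start peak in both lists was 8 under each of the 3 alternatives tried, and the median region difference stayed negative under each of its 6 (-4.18 to -1.46 points). Counts of peaks without a partner depended on the definition. For GFP+ peaks the count was 20 of 92. It became 35 of 92 when an overlap had to cover 50% of both peaks and 9 of 65 with areas of at least 400. It was 10 of 51 when genes of every type competed for the nearest place. The last setting also took the GFP- count from 34 of 103 to 16 of 54, as fewer peaks then belonged to the 8 genes. At 50% overlap the share of unpartnered GFP+ peaks was 38.0% beside 26.3% of all GFP+ peaks. The median start difference was -0.01 points by area and -1.03 points by summit p-value, and the cause was not tested. Of GFP- peaks, 44.7% lacked a partner at 50% overlap, beside 39.3% of all GFP- peaks. With areas of at least 400 it was 30.8%, beside 30.4%. Settings that changed the flank or the assignment left 17.8% to 22.2% of GFP+ and 25.9% to 33.8% of GFP- peaks without a partner. The shares over all peaks were 13.4% and 30.3%. No paired analysis was possible because each list combines both replicates of its population, and for the same reason no replicate could be left out. Reads per peak are not analysed here, so weak peaks missing from one list may be below its detection limit, and the shorter GFP+ list offers fewer partners.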

Other observations

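Taken whichever gene was nearest, a setting chosen after the data had been seen, the 100 kb flanks of other members held further regions that differed by more than 20 points. Downstream of Klf15, towards Aldh1l1 (a folate enzyme gene), GFP- peaks without a GFP+ partner lay at 33.3 kb (rank 71.2), 33.8 kb (26.4) and 39.1 kb (33.8) from the Klf15 start, and a GFP+ peak without a GFP- partner lay at 94.3 kb (37.2). Upstream of Klf15, the region at the start of Cfap100 ranked 80.1 in GFP- and 36.8 in GFP+. Of the 23 regions in the Klf15 window, 6 were lower and 1 was higher in GFP+ by more than 20 points, as were 23.8% and 7.63% of all regions.

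Upstream of Klf9, towards the channel gene Trpm3, GFP- peaks without a partner ranked 52.3 at -86.6 kb and 40.0 at -96.1 kb. Downstream of Klf10, towards Odf1, a region at 46.9 kb ranked 9.77 in GFP- and 46.7 in GFP+, and a GFP+ peak at 102.8 kb ranked 62.3 with no GFP- partner. Near Klf13, a GFP+ peak at 122.7 kb, nearest to Otud7a, ranked 33.1 with no GFP- partner. All of these regions lie nearer to another gene than to the KLF gene. They enter only the values given above for windows taken whichever gene was nearest, such as the medians set beside that of Klf2.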
